A study of Mus musculus with 3 samples.

Results

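The clusters of RBFOX2 crosslink positions that fell in protein-coding sequence were examined in primary mouse hepatocytes. A cluster was counted as a coding cluster when its midpoint lay inside a coding segment of any protein-coding transcript of GENCODE M21 (genome build GRCm38) on its own strand, with the mitochondrial chromosome left out. Of 87021 clusters, 10289 met this rule (11.8%, Wilson 95% interval 11.61 to 12.04%), in 3902 genes. The hepatocytes came from C57BL6/J mice on a control diet, were plated overnight and were then irradiated with ultraviolet light at 150 mJ/cm2. RNA crosslinked to RBFOX2 was recovered with an antibody to the protein (RBM9, Bethyl Laboratories) in 3 libraries that form a single group and carry no genotype or drug contrast. The labels give 3 livers and 3 cell pellets for each library, whereas the study's methods describe cultures each made from a pair of mice. The method, eiCLIP, is a form of crosslinking and immunoprecipitation in which reverse transcription stops at the crosslinked base, and the first base of a cDNA therefore lies at a contact of the protein with RNA.

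RBFOX2 is an RNA-binding protein of the RBFOX family that recognises the sequence GCAUG, often preceded by U, through its single RNA recognition motif. It is best known for controlling the inclusion of alternative exons from sites in the flanking introns. Contacts inside coding exons can be made on the unspliced transcript in the nucleus or on the finished mRNA, and a crosslink inside an exon does not tell these states apart. In hepatocytes much of the mRNA encodes plasma proteins, and RBFOX2 has known splicing targets among genes of lipid and membrane traffic.

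The sequence around 6 of the strongest coding clusters with the motif is shown first, because these windows let the reader see the motif in its coding frame. Each window is the cluster midpoint with 50 nt of spliced transcript on either side, written 5′ to 3′ on the transcript strand, with GCATG, the DNA form of the motif, in capitals. The clusters lay in exon 8 of Alb (chr5:90468573-90468645, plus strand, 574 counts), exon 3 of Alb (chr5:90462699-90462825, plus strand, 285 counts), exon 26 of Apob (chr12:8009994-8010019, plus strand, 285 counts), exon 6 of Rbpms (chr8:33806682-33806778, minus strand, 336 counts), exon 8 of Hipk2 (chr6:38730894-38731080, minus strand, 224 counts) and exon 3 of S100a10 (chr3:93564240-93564421, plus strand, 194 counts). The Rbpms window runs across the junction with the next exon.
Alb exon 8: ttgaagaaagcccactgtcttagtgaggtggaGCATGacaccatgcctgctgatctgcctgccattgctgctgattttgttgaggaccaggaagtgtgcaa
Alb exon 3: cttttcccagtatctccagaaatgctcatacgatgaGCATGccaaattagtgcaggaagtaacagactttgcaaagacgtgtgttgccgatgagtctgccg
Apob exon 26: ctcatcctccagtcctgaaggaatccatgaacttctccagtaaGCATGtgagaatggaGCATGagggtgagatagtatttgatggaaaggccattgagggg
Rbpms exon 6: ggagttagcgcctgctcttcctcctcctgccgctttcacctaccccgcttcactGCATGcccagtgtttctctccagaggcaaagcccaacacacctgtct
Hipk2 exon 8: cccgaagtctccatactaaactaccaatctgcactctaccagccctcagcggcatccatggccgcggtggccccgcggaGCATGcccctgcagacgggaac
S100a10 exon 3: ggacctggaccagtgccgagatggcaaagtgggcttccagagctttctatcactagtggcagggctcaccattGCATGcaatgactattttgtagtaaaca

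In both Alb windows and at both matches in the Apob window, the motif was read as G CAT G, with a histidine codon in its centre. The motif of the Hipk2 window was read as GC ATG, with a methionine codon, and that of S100a10 as GCA TG, with an alanine codon. The first match started 18 and 14 nt before the midpoint in the Alb windows and 7 nt before it in Apob. It started 4, 29 and 23 nt after the midpoint in Rbpms, Hipk2 and S100a10. Of the 8 motif-holding clusters with the highest counts, B2m (299 counts) and Nol7 (171 counts) are not printed, since their windows extend into an untranslated region.

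Shown for contrast are the coding cluster with the highest count in a principal coding transcript, which has no GCATG in its window, and the coding cluster in the shortest internal exon, whose 12 nt are in capitals. The first was in exon 4 of Alb (chr5:90463992-90464191, plus strand, 1558 counts) and the second in exon 10 of Myo18a (chr11:77822656-77822686, plus strand, 137 counts), where the window spans 3 exons.
Alb exon 4: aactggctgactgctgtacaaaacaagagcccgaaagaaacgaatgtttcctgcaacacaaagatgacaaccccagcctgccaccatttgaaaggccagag
Myo18a exon 10: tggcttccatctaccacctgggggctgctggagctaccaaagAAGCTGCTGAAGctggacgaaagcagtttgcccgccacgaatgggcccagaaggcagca

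The coding clusters were of ordinary strength but wide. Their counts ranged from 10, the minimum of the list, to 1938 with a median of 18 (quartiles 13 and 26), against a median of 17 over all clusters, and 791 sat at the minimum. Summed, they held 248282 counts, or 8.71% of the 2850863 counts in the list. Their median width was 31 nt (quartiles 10 and 73), against 23 nt for intronic clusters, 16 nt for clusters in 3′ UTRs and 35 nt for those in 5′ UTRs. The list was called on the 3 libraries pooled, so no value below has a spread between libraries or a test, and every interval covers counting error only. As a reference, each share over coding clusters is set beside the share of all coding bases of the same genes, each gene weighted by its number of coding clusters.

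The assignment to coding sequence was unambiguous for most of them. The principal transcript of the gene, as annotated by APPRIS, held 9946 (96.7%) in its coding sequence. The midpoint was also within an intron of another transcript of the gene for 1492 (14.5%), in a 5′ UTR of another transcript for 170 and in a 3′ UTR for 173. Coding segments of more than 1 gene shared the midpoint in 85 cases. Any of 3 heptamers that look like the beginning of the library's adaptor lay 6 to 17 nt downstream of the cluster's 5′ end in 129 of 9187 clusters (1.40%), and these clusters had a median width of 7 nt.

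Most coding clusters were in internal coding exons, slightly more than coding bases were. Internal coding exons held 8261 of 10289 (80.3%, 79.5 to 81.1%), against 77.4% of the coding bases of the same genes. First coding exons held 8.17% (7.66 to 8.72%) against 9.48%, and last coding exons 10.7% (10.1 to 11.3%) against 12.2%. Genes with their coding sequence in a single exon held 90 clusters, or 0.875% against 0.919%. Averaging over genes rather than clusters gave 76.6% in internal coding exons against 73.4%.

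Between start and stop codon the coding clusters were spread evenly. Cut into 3 parts of equal length, the coding sequence held 33.4%, 32.8% and 33.8% of them from first to last, each within 0.0563 percentage points of the share of coding bases. The 100 nt after the start codon held 6.24% (5.78 to 6.72%) against 6.45%, and the 100 nt before the stop codon 6.42% (5.96 to 6.91%) against 6.79%. Neither end of the reading frame therefore carried an excess beyond counting error. Among coding clusters in the top 10% of counts, the last of these parts held 3.17 percentage points more than the coding bases did.

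Shorter exons held more coding clusters for their length than long ones. The median length of the exon was 161 nt, against 171 nt for a coding base of the same genes, and 146 nt in internal exons alone. Exons of 60 nt or less held 319 clusters (3.10%, 2.78 to 3.45%) against 2.39% of coding bases, a ratio of 1.30. Exons of 61 to 100 nt held 14.6% against 12.96%, and those over 100 and up to 150 nt 27.7% against 25.7%. The order turned above 150 nt, and exons over 1000 nt held 11.5% (10.9 to 12.1%) against 13.4%, a ratio of 0.860. Exon length in multiples of 3, which keeps the frame when the exon is skipped, made no difference that could be seen, with 40.5% (39.5 to 41.6%) against 40.7%.

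**Figure D1:**
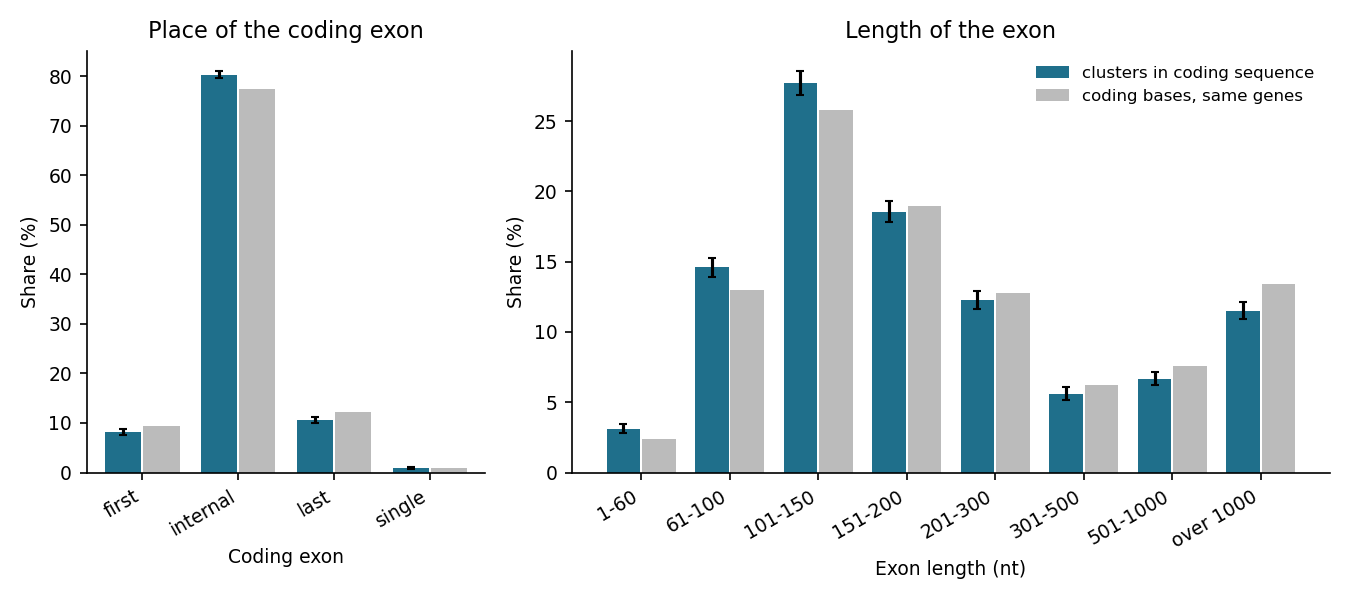
Share (%) of the 10289 coding clusters (blue, with Wilson 95% intervals) and of the coding bases of the same genes (grey), by place of the coding exon (left) and by exon length in nt (right). Blue exceeds grey for internal exons and for the 3 length classes up to 150 nt, and is below it in every class above.

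Very short exons were few but included strong clusters. Internal exons of 30 nt or less held 19 clusters (0.219%, 0.140 to 0.341%) against 0.187% of bases. The shortest was the 12-nt exon 10 of Myo18a, an unconventional myosin, printed above, where the 31-nt cluster of 137 counts ran past both exon ends. A 12-nt exon of Ptprd, a receptor-type tyrosine phosphatase, had a cluster of 23 counts that was 190 nt wide, so that most of it lay in the flanking introns. A cluster of 98 counts had its midpoint in a 23-nt exon of Rpl41, a protein of the large ribosomal subunit. It was 102 nt wide, so that most of it lay outside this exon. A 36-nt exon of Epb41, a protein of the membrane skeleton, held 69 counts. Exon 2 of Alb, with 58 nt, held 342 counts.

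Within internal exons the place of a coding cluster depended on its width. Internal exons here have a splice site at both ends, and 8695 coding clusters lay in one. Over all of them, 34.2% (33.2 to 35.2%) had their midpoint within 50 nt of the 3′ splice site, the exon's 5′ end, against 34.9% of coding bases. For the 5′ splice site, the exon's 3′ end, the values were 37.1% (36.1 to 38.1%) against 35.3%. Closer in, the shares were lower than those of the bases, with 12.1% (11.4 to 12.8%) against 14.1% within 20 nt of the 3′ splice site and 13.2% (12.5 to 13.9%) against 14.3% within 20 nt of the 5′ splice site. With the exon cut into 3 equal parts, the middle part held 37.9% (36.94 to 38.98%) against 33.4%.

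Narrow and wide clusters differed at the exon ends. Of 2089 clusters of 10 nt or less, 17.9% (16.3 to 19.6%) were within 20 nt of the 3′ splice site against 14.1% of bases, and 19.4% (17.7 to 21.1%) were within 20 nt of the 5′ splice site against 14.3%. Of 6606 wider clusters, 10.3% (9.58 to 11.1%) and 11.2% (10.51 to 12.03%) were, against 14.1% and 14.4%. The excess of narrow clusters was highest in the first 10 nt of the exon, at 10.3% (9.11 to 11.7%) against 7.05%, and 10 to 19 nt before its end, at 10.9% (9.65 to 12.3%) against 7.16%. It was as large without clusters carrying an adaptor-like heptamer (17.9% and 19.7% within 20 nt of the 3′ and 5′ splice sites) and in narrow clusters at or above the median count (18.9% and 18.3%). A wide cluster that lies inside an exon has its midpoint away from both ends by construction, and for clusters over 50 nt the shares within 20 nt fell to 7.34% and 9.80%. The width classes were set after the list had been seen.

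**Figure D2:**
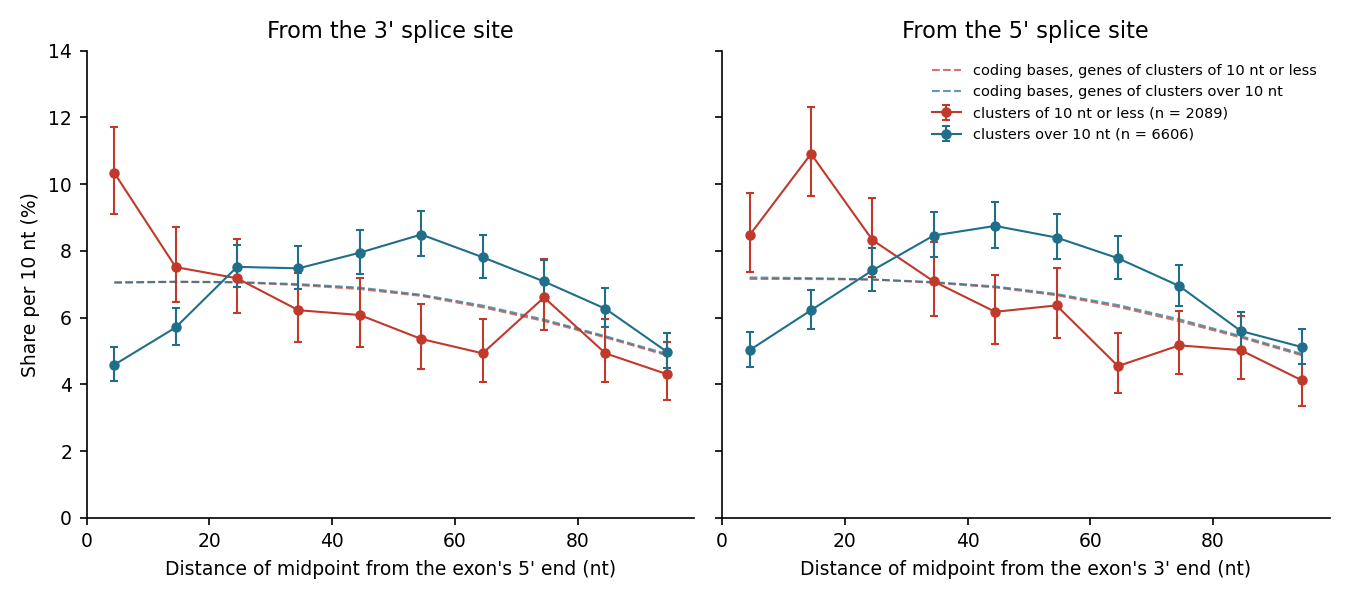
Share (%) of coding clusters per 10 nt by distance (nt) of the midpoint from the 3′ splice site (left) and the 5′ splice site (right), for 2089 clusters of 10 nt or less (red) and 6606 wider ones (blue), with Wilson 95% intervals. Dashed lines give the coding bases of the same genes and nearly coincide. Red peaks at 10.3% in the first 10 nt of the exon and at 10.9% at 10 to 19 nt before its end, where blue is below the dashed line.

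Coding clusters reached past exon borders less often than clusters of the same widths placed on coding bases would. Of the 8695, 1039 (11.9%, 11.3 to 12.7%) reached past the 3′ splice site into the upstream intron. On the coding bases of the same genes the share was 16.7%. The values for the downstream intron were 1062 (12.2%, 11.5 to 12.9%) against 16.9%, and 146 clusters reached past both ends. The median overhang was 13 nt upstream and 17.5 nt downstream. An overhang of 10 nt or less was seen in 477 (45.9%) of the former and 355 (33.4%) of the latter. In total, 1955 (22.5%) of the coding clusters in internal exons contained some intronic sequence.

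Cassette exons held no excess of coding clusters. An exon was called cassette when at least 1 transcript of the gene that spans it skips it, and constitutive when it is used by each of the transcripts that span it, of which there had to be 2 or more. Cassette exons held 1026 of 8695 (11.8%, 11.1 to 12.5%) against 12.2% of coding bases, and constitutive exons 5669 (65.2%, 64.2 to 66.2%) against 64.1%. Counting only skipping by protein-coding transcripts gave 8.34% (7.78 to 8.94%) against 8.70%. The highest counts in cassette exons were 1322, 904, 574 and 402 in exons 12, 6, 8 and 9 of Alb, which count as cassette only when transcripts that are not protein-coding are included, followed by 336 in exon 6 of Rbpms. When only coding transcripts counted, Rbpms, an RNA-binding protein, came first. It was followed by exon 6 of Hsp90ab1, a cytosolic chaperone (240 counts), exon 2 of H2-K1 (188 counts) and, further down, the 12-nt exon of Myo18a (137 counts).

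The motif was slightly more frequent near coding clusters than in the coding sequence around them. Windows of 50 nt of spliced transcript on each side of the midpoint, searched on the transcript strand for GCATG, held it at 1040 of 10262 coding clusters (10.1%, 9.57 to 10.7%) against 9.13% of windows centred on every coding base of the same genes. The longer form TGCATG, each of whose matches is also a GCATG match, was in 2.63% (2.34 to 2.96%) against 2.13%. The GCATG difference of 1.01 percentage points was 0.54 when windows were centred on the cluster's 5′ end, which is inside the counting error of the share, and 0.488 in windows of 41 nt. A pair of related 5-letter sequences showed no such excess, with CATGC, which can overlap GCATG, in 9.06% (8.52 to 9.63%) against 9.32% and GCACG in 4.37% (3.99 to 4.78%) against 4.64%. Introns were not searched, so a GCATG in a flanking intron was not counted, although 22.5% of coding clusters in internal exons contained intronic sequence. A match is a description of the letters and not a binding site.

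The share with GCATG showed no steady trend with the count. It was 10.6% (9.41 to 11.9%) for counts of 10 to 12, 9.39% (8.37 to 10.5%) for 13 to 17, 9.99% (8.88 to 11.2%) for 18 to 25 and 9.97% (8.57 to 11.6%) for 26 to 38. At 39 or more, the top 10% of the list, it was 11.6% (9.87 to 13.7%) against 9.27% of coding windows. These intervals all overlap. From the lowest to the highest counts, the differences from coding windows were 1.44, 0.186, 0.967, 1.02 and 2.37 percentage points. The share was 9.94% (8.26 to 11.9%) in cassette and 9.51% (8.77 to 10.3%) in constitutive exons, with overlapping intervals. By width it was 9.62% (8.55 to 10.8%) for clusters of 10 nt or less and 10.5% (9.52 to 11.5%) for those over 50 nt.

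Around the cluster's 5′ end, the share of positions with a GCATG start varied with distance. They occupied 0.130% of positions 11 to 20 nt upstream of it and 0.132% of positions 1 to 10 nt upstream. This fell to 0.0914% of positions 0 to 9 nt downstream and 0.0893% of positions 10 to 19 nt downstream, from 119, 121, 84 and 82 starts. Further out, the value was 0.103% from 21 to 40 nt upstream, 0.114% from 20 to 39 nt downstream and 0.1125% from 40 to 60 nt downstream. No interval or coding-base share was computed for these positions, so whether any value was raised or lowered was not tested. The reading frame of the motif was that of coding sequence at large, since 52.2% of the 1078 matches contained an ATG codon in frame against 52.2% of all matches in the same genes, 38.8% a histidine codon against 38.5%, and 8.998% an alanine codon against 9.34%.

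**Figure D3:**
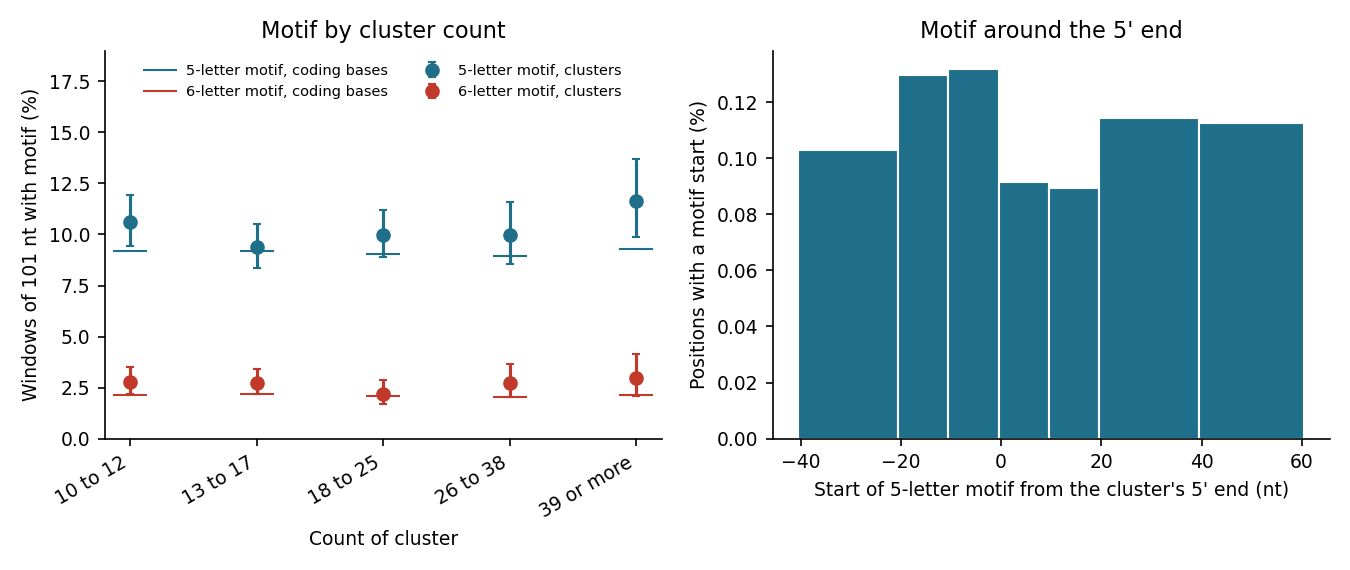
Left, share (%) of windows with GCATG (5-letter motif, blue) or TGCATG (6-letter motif, red) by cluster count, points with Wilson 95% intervals, with ticks for the coding bases of the same genes. Right, share (%) of positions with a GCATG start by distance (nt) from the cluster's 5′ end, which falls from 0.132% just upstream to 0.0914% just downstream.

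Relative to coding bases, other sequences were further raised near coding clusters than the RBFOX motif was. All hexamers were ordered by how many times more frequent they were in the windows than over coding bases, and TGCATG was number 157. The first was CGTGAT, in 1.57% against 0.861%, which is contained in an adaptor-like heptamer. Number 2 was ATATAG, in 0.955% against 0.573%. Number 3 was ACGTGA, in 1.735% against 1.129%, which is contained in the same heptamer. More frequent hexamers rich in A and G stood further down. Among them were AAAAGA (number 8) in 8.02% against 5.63%, GAGAAA (number 15) in 8.86% against 6.33% and AGAAGA (number 18) in 17.2% against 12.4%. Mean GC content was 52.0% (SD 8.66 over 10262 windows) against 52.7%. At the fourth base of the cluster (offset 3), A stood at 33.7% and T at 15.2%, against 26.1% and 21.2% over coding bases.

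A few genes held many coding clusters. Of the 3902 genes, 1963 had 1, and 129 had at least 10 and together held 2137 clusters. By number the first was Apob, the structural protein of very low-density lipoprotein, with 63 coding clusters (2151 counts). Then came genes of the cytoskeleton and matrix: Myh9, a non-muscle myosin heavy chain (47), Myo18a (40), Dst, a cytoskeletal linker (37), Sptan1, a spectrin (32), and Col18a1, a collagen (31). They were followed by Mlxipl, which encodes the glucose-responsive factor ChREBP (29), Fn1, fibronectin (29), Cald1, caldesmon (27), and Flna, filamin A (26). Per kb of coding sequence Apob ranked 204 with 4.66 clusters and Dst had 1.25, while Cald1 (11.4) and Mlxipl (10.7) were also dense. Spearman's rank correlation over genes was 0.242 with coding length and 0.367 with the number of intronic clusters, given as a description.

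Per kb of coding sequence, among genes with at least 5 coding clusters, the order was headed by short coding sequences. B2m, the light chain of MHC class I, had 22.4 per kb, and H2-K1, a heavy chain of MHC class I, had 16.9. Mup3, a major urinary protein secreted by the liver, had 16.3, Arhgdia 14.7, and Tmem243 14.1. H2-K1 and Mup3 belong to families of near-identical genes, so their values are uncertain when only uniquely mapped reads are kept. The highest B2m cluster (chr2:122147686-122147797, 299 counts) covered the start codon.

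By summed count Alb, encoding serum albumin, was first with 7255 counts, or 2.92% of the counts of all coding clusters, and the 10 first genes together held 8.50%. Reep6, a membrane-shaping protein of the endoplasmic reticulum, followed with 2916, of which 1938 came from a single cluster, the highest of all (chr10:80335250-80335333, plus strand). Of the 18 coding clusters of Reep6, 15 lay in the last exon of transcript Reep6-205, which is 3′ UTR in another transcript and lies outside the principal coding sequence. Then came Apob (2151), Myh9 (1567), H2-K1 (1304), Hipk2, a nuclear kinase (1272), Cald1 (1217), Cyp2b10, a drug-inducible cytochrome P450 (1191), Selenop, the plasma carrier of selenium (1129), and Myo18a (1103). Beside Reep6 and 6 clusters of Alb, the 10 highest coding clusters were in Gm47283 on chromosome Y (546 counts), exon 3 of Cyp2b10 (445 counts) and exon 5 of H2-K1 (420 counts). The midpoint of the Gm47283 cluster was also within an annotated 3′ UTR, and the cluster reached past its coding segment. Cyp2b10 and H2-K1 belong to families of similar genes, which makes their counts uncertain. The files hold no expression values, so the numbers are not scaled by transcript level.

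Alb was covered from its first coding exon to the 13th of 14. Of its 22 clusters 20 were coding clusters, the other 2 lay in its 3′ UTR, and none lay in an intron of it outside these exons. The highest coding cluster of each exon, from exon 1 to exon 13, held 532, 342, 285, 1558, 312, 904, 179, 574, 402, 307, 297, 1322 and 49 counts. Exons 4, 12 and 6 thus stood above the rest. In exon 4 the cluster was 200 nt wide in an exon of 212 nt, with its midpoint 108 nt from the exon's 5′ end. No coding cluster with a motif window was wider than 200 nt, and whether cluster calling capped the width was not tested. In exon 12 the cluster was 168 nt wide in an exon of 224 nt, and in exon 6 it was 90 nt wide in an exon of 98 nt. None of these 3 windows held GCATG, which was found in 5 of the 20, among them exons 3 and 8 printed above.

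The coding clusters of Apob were spread over 16 of its 29 coding exons. Exon 26, which makes up 7467 nt of a coding sequence of 13515 nt, held 36 of the 63, with counts from 10 to 285 and a median of 25. The last exon held 13, with counts from 12 to 53. Each of the other 14 exons with a coding cluster had 1. The highest, printed above with 2 matches to GCATG, held 285 counts, and the next highest, also in exon 26, held 115. The windows of 5 of the 63 held GCATG.

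**Figure D4:**
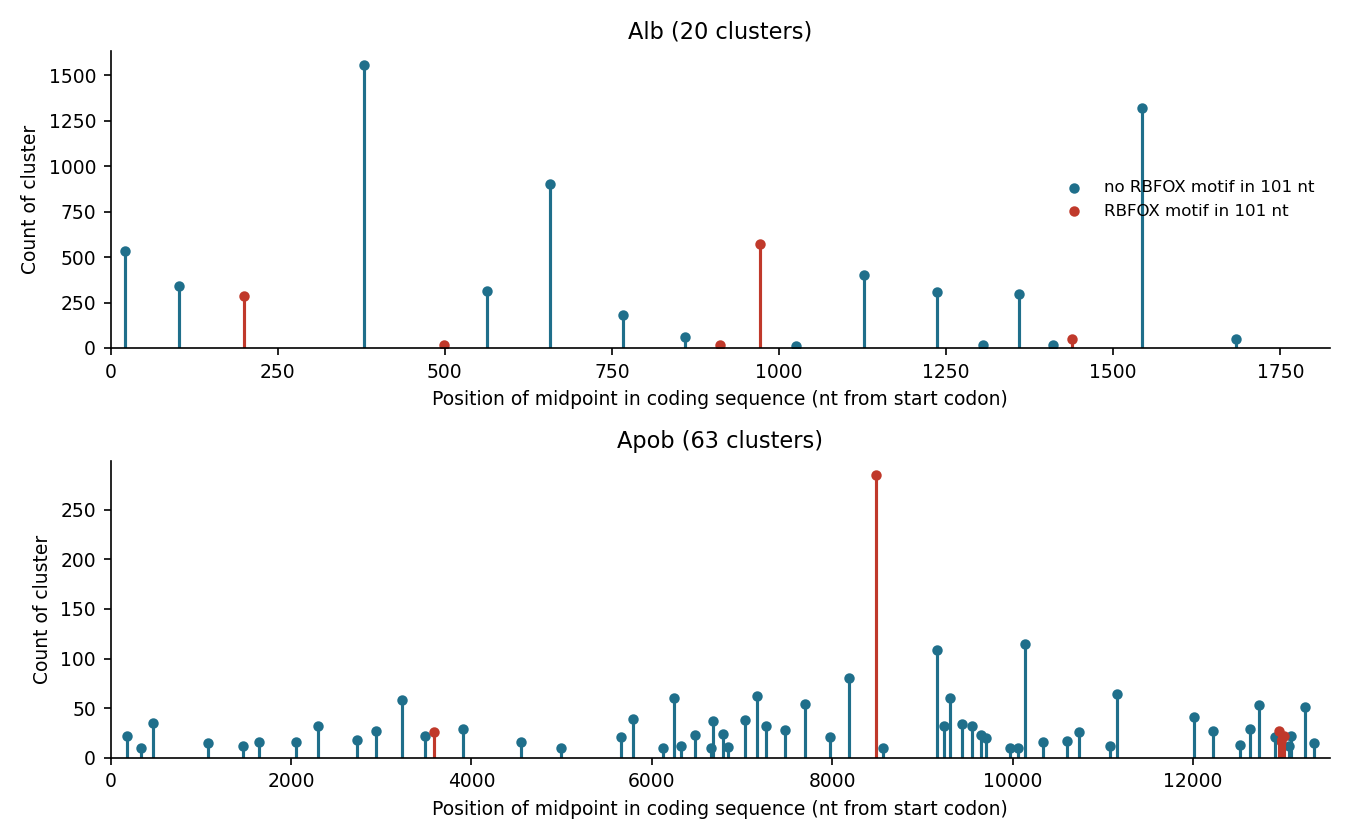
Count of each coding cluster of Alb (top, 20 clusters) and Apob (bottom, 63 clusters) against the position of its midpoint in the coding sequence (nt from the start codon). Red marks GCATG within 50 nt of the midpoint. In Alb 1558 and 1322 counts are reached without the motif, and in Apob the highest cluster, at 285 counts, holds it.

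The clusters of the splicing targets that the study followed fell in coding sequence at about the general rate. The 7 genes had 198 clusters in all, of which 33 (16.7%) were coding clusters, against 14.1% over all protein-coding genes. By gene the share was higher, with a coding cluster in 6 of the 7, against 42.5% of protein-coding genes with any cluster. Scarb1, the receptor for high-density lipoprotein, had clusters but none in coding sequence. Numb, an adaptor of membrane traffic and Notch signalling, had 3 (42, 28 and 23 counts) among 28 clusters, the highest in a 75-nt cassette exon. Sec31a, a coat protein of COPII vesicles, had 5 of 28 with counts from 12 to 25, and 2 of them were in its exon 22, which is a cassette exon of 336 nt. Pla2g6, a phospholipase, had 7 of 28 with counts from 10 to 24. Of these, the 21-count cluster was in a 165-nt cassette exon outside the principal coding sequence. Osbpl9, a lipid transfer protein, had 1 of 33 with 12 counts. Its exon counts as cassette only when transcripts that are not protein-coding are included. These cassette exons of Numb, Sec31a, Pla2g6 and Osbpl9 were not matched to the exons whose splicing the study tested. Ptbp2, a splicing repressor, had 2 of 13 with 20 and 14 counts. The 20-count cluster, 7 nt wide, lay across the 3′ splice site of its exon, with the midpoint 1 nt inside.

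Snrnp70, which encodes a protein of the U1 small nuclear ribonucleoprotein, stood apart from the other 6 targets with 15 coding clusters and 596 counts. They lay in 8 of its 9 coding exons. The last exon held 6 with counts from 20 to 163, exon 3 held 94 counts in an exon of 63 nt, and exon 2 held 49. Of the 15 midpoints, 5 were also within an intron of another transcript and 2 in a 3′ UTR. All 6 of the last exon were among these. GCATG was in the windows of 4 of the 15.

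Gene groups of the hepatocyte differed in how far their clusters fell in coding sequence. Over all 21938 protein-coding genes, 17.8% had a coding cluster, which was 42.5% of those with any cluster, and 14.1% of their clusters were coding clusters. Among 58 secreted plasma proteins 42 had one, and 39.4% of the group's clusters were coding, with a median of 23 counts, or 37.5% without Alb. Within this list, which holds neither Selenop nor Apob, the highest after Alb were Cp, the copper-carrying ceruloplasmin (818 counts), Fn1 (795 counts) and Gc, the vitamin D-binding protein (783 counts). Among 35 apolipoproteins and genes of lipoprotein handling 17 had one and 46.5% of clusters were coding, of which Apob gave 63 of 119. Without Apob the share was 30.8% (56 of 182). After Apob these were led by Apoe (576 counts), Apoa1, the main protein of high-density lipoprotein (509 counts), and Apoa4 (277 counts). In Apoe 11 of 13 clusters were coding and in Apoa4 7 of 8.

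Enzymes gave lower shares. Of 32 genes of the urea cycle and amino acid catabolism 12 had a coding cluster and 24.1% of clusters were coding, led by Ftcd, an enzyme of histidine breakdown (20 clusters, 763 counts), Cps1, the entry enzyme of the urea cycle (17 clusters, 436 counts), and Asl, argininosuccinate lyase (3 clusters, 96 counts). Of 30 cytochromes P450 and their redox partners 11 had one, and the share of 17.5% was near that of all genes. After Cyp2b10 the highest were Cyp2c70 (103 counts) and Por, the electron donor of P450 enzymes (4 coding clusters, the highest with 39 counts). Of 31 genes of fatty acid synthesis and oxidation 16 had one, with 15.1% of clusters coding. Here Scd1, the stearoyl-CoA desaturase, was first with 314 counts in 10 coding clusters, while 60 of its 72 clusters were in its 3′ UTR, and Acsl5, an acyl-CoA synthetase, had 105 counts.

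Splicing regulators, cytoskeletal genes and coat proteins often had a coding cluster without a high share of their clusters being coding. Of 58 splicing regulators 41 had one and 18.5% of clusters were coding, with Son (879 counts), Snrnp70, Srrm2 (482 counts) and Tardbp (455 counts) first. Of 41 genes linking junctions and cytoskeleton 32 had one and 14.5% of 2317 clusters were coding, led by Myh9, Sptan1, Sorbs2 and Flna. Sorbs2, an adaptor of the actin cytoskeleton, had 23 coding clusters among 687. Of 36 coat proteins of secretion and endocytosis 25 had one and 15.9% of clusters were coding, with Cltc, the clathrin heavy chain (153 counts), Picalm (146 counts), Dnm2 (131 counts) and Ap2a1 (120 counts) first. Of 78 cytosolic ribosomal proteins 57 had one and 24.3% of clusters were coding, led by Rpl13a (171 counts), Rpl4 (160 counts) and Rpl23 (119 counts), values that are uncertain because these genes have many processed pseudogenes.

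Hepatocyte markers had clusters of any kind more often than markers of other liver cells did. Any cluster was seen in 12 of 15 hepatocyte markers, against 9171 of all 21938 protein-coding genes. A coding cluster was seen in 17.8% of all protein-coding genes, or 42.5% of those with any cluster. Of the 15 hepatocyte markers 10 had coding clusters, 123 in all, which were 56.7% of the markers' clusters. Alb and Apob gave 83 of these, and without them the share was 33.1% (40 of 121). Of 20 markers of other liver cells (endothelial, Kupffer, stellate, biliary and lymphoid), 3 had any cluster and 0 had a coding cluster. These genes had 3 clusters in all, too few for the lack of coding ones to be read as a difference. The list starts at 10 counts, so lower counts in these genes would not be seen. Coding clusters occurred in 686 genes (17.6%) without an intronic cluster, and in 432 genes (11.1%) every cluster was a coding cluster.

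**Figure D5:**
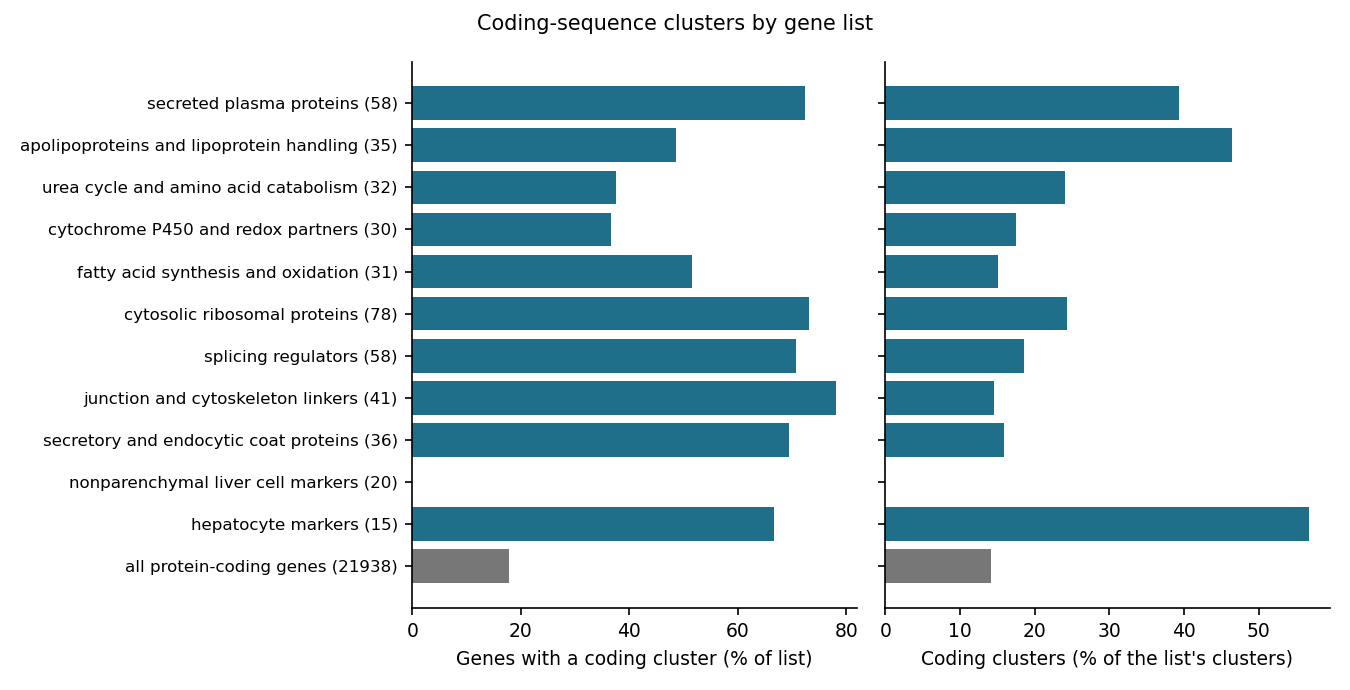
For each gene list, with the number of annotated genes in brackets, the share (%) of genes with a coding cluster (left) and the share (%) of the list's clusters that are coding clusters (right). Hepatocyte markers (56.7%) and apolipoproteins (46.5%) have the longest bars on the right, and both rest largely on Apob and, for the markers, Alb (33.1% and 30.8% without them). All protein-coding genes stand at 14.1%. Markers of other liver cells are at 0, from 3 clusters in all.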

How the data were processed

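RBFOX2 eiCLIP was performed on 3 libraries of primary mouse hepatocytes. By the methods and GEO's processing notes, the authors demultiplexed with CASAVA 1.8.4, trimmed with cutadapt, aligned end to end with STAR 2.4.2a to GRCm38, kept uniquely mapped reads, collapsed duplicates by random barcode and called clusters of cDNA starts with Paraclu in iMaps. The deposited value of each cluster is a whole-number count, read here as cDNA starts pooled over the libraries. The depth per library is unknown, and counts were neither normalised nor corrected for input.

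Clusters were assigned by midpoint to GENCODE M21. For exon rank, splice distance and sequence, each was placed on 1 transcript with the position in its coding sequence, APPRIS principal first. Sequence came from GENCODE transcript sequences, so introns were not searched for motifs. The reference share used every coding base of the same genes (9278482 bases) without random draws. Constitutive exons needed at least 2 spanning transcripts. Hexamer ratios used a pseudocount of 0.5 windows. Intervals are Wilson 95%. Tools were matplotlib 3.10.9, numba 0.67.0, scipy 1.17.1, pandas 2.3.3 and numpy 2.4.6 under Python 3.11.15, and the procedure was tested on simulated data.

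The clusters, gene lists and rules for names were chosen with earlier results of these data known. Names were given to the 10 highest coding clusters, the 8 highest with GCATG, the 5 highest in cassette exons, the 10 genes with most clusters and with most counts, the 5 densest genes (at least 5 clusters), the study's targets and up to 4 genes per list. Exons of 60 nt or less and the printed Myo18a and Alb exon 4 windows were named after their values were seen. Alternatives changed the anchor, count filter, annotation, transcript, window and motif. Some items are not reported here.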

Additional observations from a re-analysis of the deposited data

How the results depend on the processing

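The differences below are coding clusters minus coding bases of the same genes, in percentage points. Of 85 alternative values for 11 results, 64 moved by no more than counting error or, for numbers of clusters and genes, by less than 1.5 times. In 2 of the 64 a value near 0 changed sign: the cassette difference with 1 value per gene (0.183) and that of the last coding part at or above the median count (0.312). The share within 50 nt of the 5′ splice site (1.78 above the bases) turned below them at 20 nt (-1.08), at 30 nt (-0.547), with the cluster's 5′ end in place of its midpoint (-4.12) and in the top 10% of counts (-3.3), and was 0.635 at or above the median count. The share within 50 nt of the 3′ splice site (-0.676) went to -1.94 at 20 nt, -2.14 with 1 value per gene, -4.38 in the top 10% and 9.31 with the 5′ end. The 5′ end of a cluster lies upstream of its midpoint by construction. The GCATG difference (1.01) was 2.37 in the top 10%, 0.54 with the 5′ end and 0.488 in 41 nt, and turned for the other motifs CATGC (-0.252) and GCACG (-0.272). In the top 10% the cassette difference was 0.532 (from -0.383), that of the last of 3 equal parts of the coding sequence 3.17 (from -0.00582) and the median exon length 164 nt (from 161). The number of clusters was 5630 at or above the median count and 1085 in the top 10%, in 2520 and 580 genes, by construction. Apob ranked 204 per kb and 2 in the top 10%. Except for clusters left out by construction, the cause of these changes was not tested. Leaving out Alb or the heptamer clusters moved no share beyond counting error. Leaving out Alb or Apob and the width classes were chosen after seeing the data. Libraries could not be left out, since 1 pooled list was deposited for them. No paired analysis was possible because the replicates carry no columns of their own. The list holds no cluster under 10 counts, and the depth of the libraries is unknown.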
